A study of Homo sapiens with 12 samples.

Results

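Transcripts of 9 genes around the FOXO transcription factors and insulin signalling were described across the 4 groups of a knockdown experiment in the human glioma cell line U87. The genes were FBXO32, FOXO1, FOXO3, IRS1, IRS2, PIK3IP1, TXNIP, CCNG2 and BCL6, and every array probe carrying 1 of these symbols was taken, which gave 16 of the 47320 probes. Of these, 9 probes of 7 genes were detected well enough to be analysed. The genes were chosen by what they are known to do together with measured values of these arrays, the differences between BCL3 siRNA and control siRNA, so all differences between siRNAs among them are given as descriptions without a test.

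Insulin and its relatives act through a receptor that phosphorylates the IRS adaptor proteins, which recruit the lipid kinase PI3K and thereby switch on the kinase AKT. AKT phosphorylates FOXO1 and FOXO3 and keeps them out of the nucleus; when AKT is quiet, FOXO factors enter the nucleus and switch on genes of growth arrest, autophagy and protein breakdown. FBXO32 (atrogin-1) is the F-box subunit of a ubiquitin ligase best known as a FOXO target in wasting muscle, and TXNIP, CCNG2, BCL6 and IRS2 have all been described as FOXO-responsive in other cells.

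The cells had been transfected with siRNA targeting BCL3 or with a control siRNA and then given temozolomide (TMZ), which alkylates DNA and is standard in glioblastoma therapy, or DMSO alone; the TMZ dose was 100 µM and the exposure 24 h. BCL3 belongs to the I-kappa-B proteins but works in the nucleus, where it pairs with NF-kappaB subunits. RNA of each of the 4 combinations was hybridized to 3 Illumina bead arrays, 12 in all. Nothing in the labels tells whether the arrays of a group stand for separate cultures; the p-values thus reflect array-to-array spread that may be technical.

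Between 16381 and 17839 probes were detected per array, and the mean raw intensity of an array ran from 229.6 to 317.5. BCL3, the targeted gene, had normalized log2 intensities of 7.25 to 7.47 on the 6 arrays of control siRNA and of 6.28 to 6.57 on the 6 arrays of BCL3 siRNA, so the groups did not overlap. It fell by 0.98 under DMSO (SE 0.07, limma adjusted p = 7.56e-07) and by 0.76 under TMZ (SE 0.07, adjusted p = 7.09e-06). Of 10 astroglial and glioma markers, CD44, NES, SLC1A3 and VIM were kept, while GFAP, S100B, AQP4, ALDH1L1 and SOX2 were detected on no array. Of 11 skeletal muscle markers, 10 were detected on no array, among them MYOD1, MYOG, CKM and ACTA1, and only TNNT1 was kept. The leukocyte markers PTPRC, CD3E and ITGAM were likewise detected on no array, and 4 of 7 leukocyte markers (AIF1, CD14, CD68 and CSF1R) were kept.

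Whether a transcript was detected differed between probes of the same gene. An array counted as detecting a probe at a detection p under 0.01, and a probe was analysed when at least 3 of 12 arrays detected it. Both analysed FBXO32 probes (ILMN_1703955 and ILMN_1652280; the gene lies on chromosome 8 in RefSeq) were detected on 12 of 12 arrays, whereas ILMN_1760830 was detected on 0. Of 4 FOXO3 probes (chromosome 6), ILMN_1681703 and ILMN_1844692 were detected on all 12 arrays and ILMN_1712515 and ILMN_1687940 on 0. IRS1 (chromosome 2), IRS2 (13), TXNIP (1) and BCL6 (3) had 1 probe each, detected on 12 of 12 arrays.

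PIK3IP1 (chromosome 22) lay just inside the limit of detection, with 11 of 12 arrays and raw intensities of 99.5 to 117.8; the array that missed it, replicate 3 of control siRNA and DMSO, had a detection p of 0.0169. FOXO1 (chromosome 13) lay just outside, with raw intensities of 87.9 to 106.3. It was detected on 2 of 12 arrays, both of control siRNA and TMZ, and its lowest detection p was 0.0026. The 3 CCNG2 probes (chromosome 4) were detected on 2, 1 and 0 arrays, with raw intensities between 85.3 and 105. FOXO1, a main target of insulin control in liver, and CCNG2, an unconventional cyclin linked to cell cycle arrest, were therefore not tested, and no difference between groups was measurable for them at this signal.

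**Figure D1:**
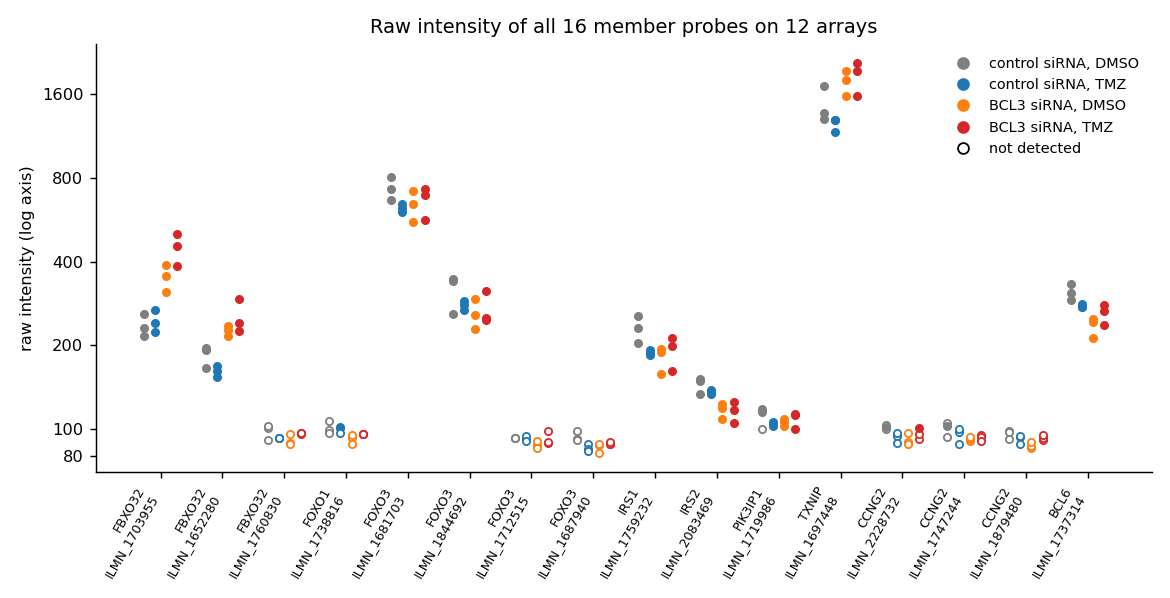
Raw intensity (log axis) of each of the 16 probes on each array, with the 4 groups side by side within a probe and open circles for arrays that did not detect it. The 7 probes with mostly open circles sit near 100, and the highest value is 2069.7 for TXNIP.

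With both probes and under both treatments, FBXO32 was higher with BCL3 siRNA, and no array of one siRNA reached into the range of the other. Probe ILMN_1703955 read 7.05, 7.11 and 7.14 (normalized log2 intensity) with control siRNA and DMSO, and 8.24, 8.31 and 8.45 with BCL3 siRNA and DMSO. Under TMZ it read 7.20, 7.38 and 7.57 with control siRNA, and 8.52, 8.56 and 8.63 with BCL3 siRNA. In these normalized values the 4 groups followed each other without overlap, from control siRNA with DMSO to BCL3 siRNA with TMZ. Between siRNAs the log2 difference was 1.23 under DMSO (SE 0.09, n = 3 per group), a 2.35-fold higher signal, and 1.19 under TMZ (SE 0.09), a 2.27-fold higher signal. Over 27 alternative settings the difference of this probe ran from 0.89 to 1.28 under DMSO and from 0.91 to 1.28 under TMZ.

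The second FBXO32 probe, ILMN_1652280, read 6.47, 6.49 and 6.68 with control siRNA and DMSO against 7.40, 7.50 and 7.59 with BCL3 siRNA. Under TMZ the values were 6.33, 6.42 and 6.51 against 7.36, 7.54 and 7.67. Here the groups separated by siRNA, and the DMSO and TMZ arrays of each siRNA overlapped. The difference was 0.95 under DMSO and 1.10 under TMZ (SE 0.09 each). All these values include an offset of 16 and understate differences of dim probes. Without background correction, the differences of this probe were 0.60 and 0.69. Bulk RNA does not tell more transcript per cell from more cells that carry it.

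Raw intensities, before arrays were brought to a common distribution, gave the same order for FBXO32. Probe ILMN_1703955 averaged 235.3 ± 21.8 (SD, n = 3) with control siRNA and 350.9 ± 39.1 with BCL3 siRNA under DMSO, and 243.6 ± 22.7 against 448.0 ± 58.3 under TMZ. The lowest array with BCL3 siRNA, at 310.4, lay above the highest with control siRNA, at 268. Within each siRNA, the raw DMSO and TMZ arrays of ILMN_1703955 overlapped. With control siRNA they ran from 216.4 to 259.1 and from 223.2 to 268, and with BCL3 siRNA from 310.4 to 388.5 and from 386.5 to 502.4. Among the 18105 probes analysed, the difference of ILMN_1703955 ranked 13 from the top under DMSO and 17 under TMZ, and that of ILMN_1652280 ranked 50 and 25.

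TXNIP, an alpha-arrestin that binds thioredoxin and limits glucose uptake, was also higher on all 6 arrays of BCL3 siRNA. Its log2 values were 10.18, 10.30 and 10.33 with control siRNA and DMSO against 10.84, 10.90 and 10.95 with BCL3 siRNA. Under TMZ they were 10.13, 10.29 and 10.30 against 10.78, 10.79 and 10.85. The arrays of the 2 siRNAs were apart, while DMSO and TMZ arrays of the same siRNA overlapped. The difference was 0.63 under DMSO (SE 0.07), or 1.55-fold, and 0.57 under TMZ (SE 0.07), or 1.48-fold, with ranks of 265 and 410 from the top. In raw intensity the DMSO groups overlapped, since 1 control array read 1714.6 and the lowest array of BCL3 siRNA read 1581.1. Scaling arrays to the median of all probes, most of which were not detected, brought the DMSO difference down to 0.37.

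The TXNIP promoter is printed because it holds a FOXO element and the paired boxes read by the glucose-responsive MondoA factors, which are known for driving this gene. The 250 bases before the RefSeq start site, chr1:145996580-145996829 on the minus strand of GRCh38.p14, are given 5′ to 3′, with the FOXO element and the paired boxes in capitals.
TXNIP: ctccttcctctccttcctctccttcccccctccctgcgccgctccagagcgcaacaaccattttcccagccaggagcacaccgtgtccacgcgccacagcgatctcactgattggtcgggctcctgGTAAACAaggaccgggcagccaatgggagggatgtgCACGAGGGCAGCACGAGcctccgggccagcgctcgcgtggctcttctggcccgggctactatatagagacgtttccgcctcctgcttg

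Motifs were searched on both strands of windows from 250 bases before to 50 after each start, of which the RefSeq table held 14 for 8 of the 9 genes; FBXO32 had none. The FOXO element GTAAACA was found in 3.42% of all 35116 windows and in 4.19% of all 27305 genes. Among the members it was found in TXNIP, at position -124, and in PIK3IP1, at position 17 on the opposite strand. The E-box CACGTG was found in 7.26% of windows and 8.77% of genes, and here in CCNG2 at -30 and in IRS1 at 36. The kappaB consensus, the site of the NF-kappaB proteins that BCL3 partners, was found in 11.3% of windows and 13.3% of genes. Among the members it stood in 3 of 14 windows, those of IRS1 and PIK3IP1. The paired boxes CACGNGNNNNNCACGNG stood in 20 windows, 0.057%, and in 0.0732% of genes. Among the members they stood in TXNIP at -88. This motif was added after the TXNIP sequence had been read. The PIK3IP1 element lies at chr22:31292454-31292483 (minus strand), in a member that was higher under DMSO in normalized values only. The CCNG2 box lies at chr4:77157165-77157194 (plus strand), in a member that was not detected. Both are shown with their flanks and the match in capitals.
PIK3IP1: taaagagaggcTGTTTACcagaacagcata
CCNG2: tccgcggggagtCACGTGccccgccccctt
A match describes the letters of a window and not the binding of a factor.

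FOXO3 itself differed little between siRNAs. FOXO3 probe ILMN_1681703 read 9.14, 9.18 and 9.23 with control siRNA and DMSO and 9.26, 9.30 and 9.43 with BCL3 siRNA, a log2 difference of 0.15 (SE 0.06). Under TMZ it read 9.09, 9.11 and 9.18 against 9.19, 9.20 and 9.22, a difference of 0.08 (SE 0.06). The arrays did not overlap in either treatment, although under TMZ the nearest arrays stood at 9.18 and 9.19. Without replicate 3 of BCL3 siRNA and DMSO, the DMSO difference was 0.10. Its raw mean under DMSO ran the other way, 735.5 ± 70.9 with control siRNA and 639.7 ± 81.7 with BCL3 siRNA, and scaling to the median of all probes gave -0.14; under TMZ, scaling to the median of the analysed probes gave 0.18. The second FOXO3 probe, ILMN_1844692, overlapped between siRNAs in both treatments, with differences of 0.09 and -0.01 (SE 0.11 each). Leaving out 1 array moved these between 0.0025 and 0.18 and between -0.08 and 0.10, and scaling to the median of all probes gave -0.26 under DMSO.

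Among the insulin signalling members, IRS2 was lower with BCL3 siRNA and IRS1 overlapped between siRNAs. IRS2, the adaptor that FOXO factors induce when insulin is low, read 5.83, 5.87 and 5.98 with control siRNA and DMSO and 5.57, 5.65 and 5.81 with BCL3 siRNA. Under TMZ it read 5.91, 5.92 and 5.94 against 5.27, 5.44 and 5.59. All 6 arrays of BCL3 siRNA lay below all 6 of control siRNA, with differences of -0.22 under DMSO and -0.49 under TMZ (SE 0.09 each). IRS2 was dim, with raw intensities between 105.4 and 151.5, and without background correction the differences were -0.09 and -0.20; scaling to the median of all probes gave -0.51 under DMSO. It ranked 3630 from the bottom under DMSO and 973 under TMZ.

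IRS1, the adaptor with the broadest expression, read 7.00, 7.05 and 7.08 with control siRNA and DMSO and 6.83, 6.99 and 7.08 with BCL3 siRNA. Under TMZ it read 6.78, 6.84 and 6.85 against 6.76, 6.95 and 7.02. The siRNA groups overlapped in both treatments, with differences of -0.08 and 0.09 (SE 0.08 each). The former was -0.43 with arrays scaled to the median of all probes and between -0.13 and -0.0066 with 1 array left out, the latter value without replicate 2 of BCL3 siRNA and DMSO; the difference under TMZ was 0.02 with that scaling, 0.17 without replicate 1 of BCL3 siRNA and TMZ and 0.03 without replicate 2. PIK3IP1, a membrane protein that restrains PI3K, read 4.69, 5.01 and 5.10 with control siRNA and DMSO against 5.17, 5.24 and 5.26 with BCL3 siRNA, a difference of 0.29 (SE 0.11). Without replicate 3 of control siRNA and DMSO, the array that did not detect it, the difference was 0.17. The raw mean of PIK3IP1 under DMSO ran the other way, 111.0 ± 9.4 with control siRNA and 105.3 ± 3.0 with BCL3 siRNA. Its raw DMSO arrays overlapped between siRNAs. Under TMZ its groups overlapped (4.86, 4.96 and 4.97 against 4.96, 5.18 and 5.31), with a difference of 0.22 (SE 0.11), or 0.14 without replicate 3 of BCL3 siRNA and TMZ. Without background correction the differences of this dim probe were 0.09 and 0.07, and under DMSO the value was 0.43 with arrays scaled to the median of the analysed probes and 0.08 with the median of all probes.

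BCL6, a transcriptional repressor that FOXO factors induce in lymphocytes, read 7.60, 7.64 and 7.75 with control siRNA and DMSO and 7.53, 7.55 and 7.60 with BCL3 siRNA. Under TMZ it read 7.63, 7.65 and 7.68 against 7.55, 7.58 and 7.63. The groups overlapped in both treatments, and the differences were -0.10 and -0.06 (SE 0.06 each). With arrays scaled to the median of all probes they were -0.45 and -0.12, and without replicate 3 of control siRNA and DMSO the former was -0.06.

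**Figure D2:**
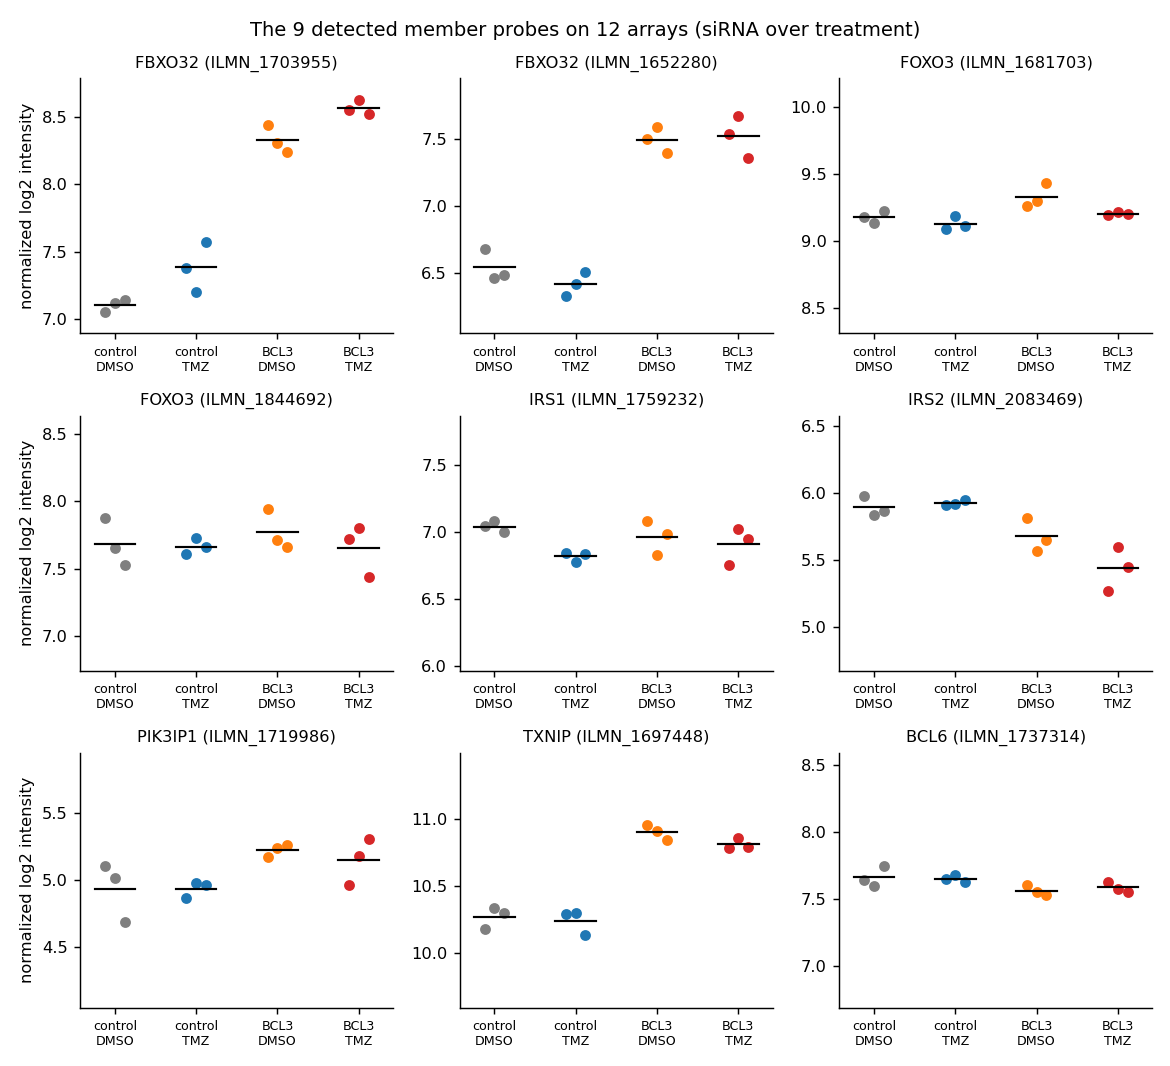
Normalized log2 intensity of the 9 analysed probes, 1 point per array with the group mean as a line; every panel spans the same range of log2 units. Both FBXO32 probes and TXNIP separate the 6 arrays of BCL3 siRNA from the 6 of control siRNA upwards and IRS2 downwards, and BCL6 and IRS1 overlap.

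Counted over the normalized values of the 9 analysed probes under DMSO, 5 were higher with BCL3 siRNA without overlap and 1 was lower (IRS2). The higher ones were both FBXO32 probes, TXNIP, PIK3IP1 and FOXO3 ILMN_1681703. The BCL3 siRNA separated 46% of all analysed probes in this way, 23.7% upwards and 22.3% downwards, and 34.9% passed an adjusted p of 0.05. Under TMZ, 4 were higher and 1 was lower, beside 45.8% of all probes without overlap (23.4% upwards and 22.5% downwards) and 33.5% past the threshold. The members had been chosen with this contrast known, and nothing is read from their share. Their median difference was 0.15 under DMSO and 0.09 under TMZ, against 0.01 for all probes in both.

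**Figure D3:**
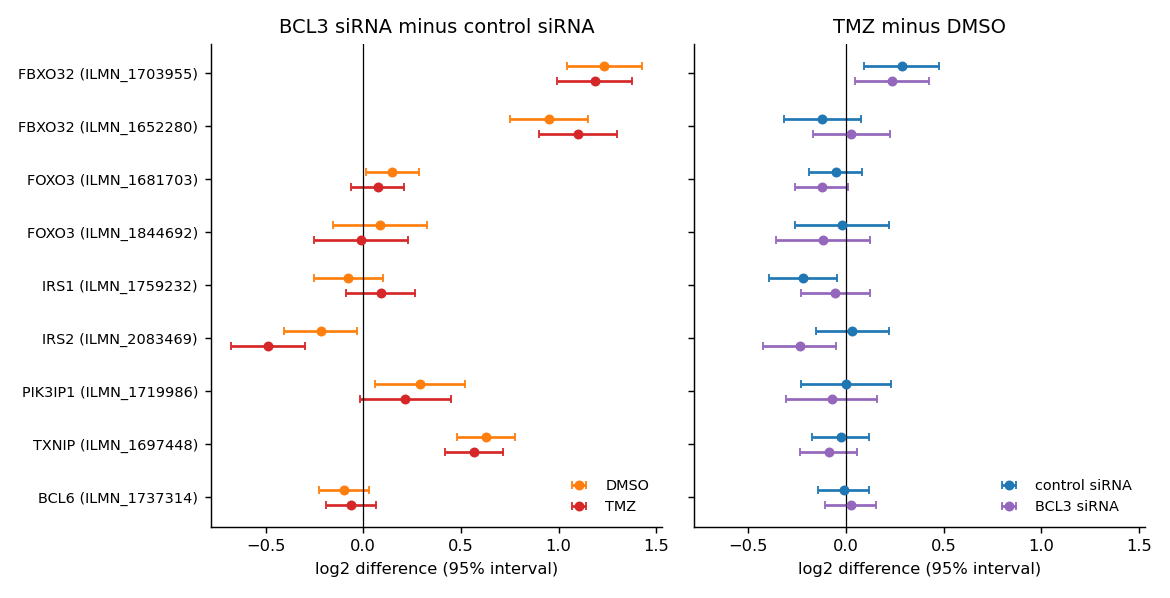
Log2 differences of the 9 probes with their 95% intervals, BCL3 siRNA minus control siRNA on the left and TMZ minus DMSO on the right. FBXO32 lies between 0.95 and 1.23 on the left, and all points on the right lie between -0.24 and 0.28.

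The effect of TMZ was not part of the contrast used to choose the genes, and its differences among them ran from -0.24 to 0.28. The TMZ contrast within each siRNA shares arrays with the siRNA differences, so its member tests are not fully independent of that choice. With control siRNA, 0 of the 9 probes passed the threshold of a limma adjusted p of 0.05, beside 0.497% of all probes, and 2 had an unadjusted p under 0.05, as did 13.8% of all probes. These were FBXO32 ILMN_1703955, at 0.28 (SE 0.09, adjusted p = 0.19), and IRS1, at -0.22 (SE 0.08, adjusted p = 0.263). The 3 TMZ arrays lay above the DMSO arrays for the former and below them for the latter, beside 10.8% of all probes separated upwards and 10.6% downwards. With BCL3 siRNA, 0 of 9 passed as well, beside 0.475% of all probes (0.271% up, 0.204% down), and 2 had an unadjusted p under 0.05, as did 14.2% of all probes. They were FBXO32 ILMN_1703955, at 0.24 (SE 0.09, adjusted p = 0.253), and IRS2, at -0.24 (SE 0.09, adjusted p = 0.242). FBXO32 ILMN_1703955 was again higher on all 3 TMZ arrays and FOXO3 ILMN_1681703 lower, beside 9.13% of all probes separated upwards and 9.2% downwards.

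Averaged over both siRNAs, 1 of 9 probes passed, beside 2.51% of all probes (1.26% up, 1.25% down). FBXO32 ILMN_1703955 rose by 0.26 with TMZ (SE 0.06, limma adjusted p = 0.0482), while the second FBXO32 probe stood at -0.05 (SE 0.06, 95% interval -0.19 to 0.09, adjusted p = 0.737). The call was lost in 18 of 26 alternatives, with an adjusted p of up to 0.213. Among these, it was lost when any array but replicate 2 of control siRNA and TMZ was left out, and with the replicate number as a block the adjusted p was 0.0806. IRS1 stood at -0.14 (95% interval -0.26 to -0.01, adjusted p = 0.211) and FOXO3 ILMN_1681703 at -0.09 (-0.18 to 0.01, adjusted p = 0.296). TXNIP stood at -0.06 (-0.16 to 0.05) and BCL6 at 0.01 (-0.09 to 0.10).

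Whether the siRNA changed the response to TMZ was tested by the interaction. The interaction is also the siRNA difference under TMZ minus that under DMSO, and siRNA differences took part in choosing the members. Its member tests are therefore not independent of that choice. 0 of 9 probes passed in limma, as did 0% of all probes; 1252 of all probes (6.92%) had an unadjusted p under 0.05, and 1 of these was a member. That was IRS2, for which TMZ and DMSO differed by 0.03 in control siRNA cells but by -0.24 in BCL3 siRNA cells, an interaction of -0.27 (SE 0.12, 95% interval -0.54 to -0.0040, adjusted p = 0.717). For the FBXO32 probes the 95% intervals of the interaction were -0.32 to 0.22 for ILMN_1703955 and -0.13 to 0.43 for ILMN_1652280. TXNIP had an interaction of -0.06 (-0.27 to 0.15).

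The other genes of these pathways were counted from 6 lists of textbook members, written with earlier results of these data known and so no independent evidence, each gene by its brightest analysed probe. The BCL3 siRNA moved 38.1% of all 10686 genes past the threshold under DMSO (19.3% up, 18.8% down) and 36% under TMZ (17.1% up, 18.9% down), and the lists are to be read beside these shares. Of 24 FOXO target genes analysed outside the members, 7 rose, 4 fell and 13 did not pass under DMSO, with a list median of 0.11 against 0.01 for all genes. Under TMZ the counts were 7, 4 and 13, with a median of 0.02 against 0.00.

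SESN1, a stress-induced sestrin that restrains mTOR, had the largest rise of the list, from 5.75 to 6.99 under DMSO (1.24, SE 0.07, adjusted p = 1.16e-07) and from 6.71 to 7.66 under TMZ (0.95, SE 0.07). ULK1, the kinase that starts autophagy, rose by 0.69 and 0.60 (SE 0.07), and its other analysed probe by 0.70 and 0.67. CDKN1A, the p21 inhibitor of cyclin-dependent kinases, rose by 0.51 and 0.44 (SE 0.06). KLF2, a zinc finger factor of quiescent cells, fell by 0.60 under DMSO and by 0.61 under TMZ (SE 0.07). The remaining 4 rises and 3 falls in each treatment are named here after their values were seen. BNIP3, GADD45A and CITED2 rose and IGFBP1 and CCND1 fell in both treatments; BCL2L11 rose and CAT fell under DMSO, and ATG14 rose and PPARGC1A fell under TMZ. The other probe of GADD45A stood at 0.18 under DMSO (adjusted p = 0.18), and the other probe of CAT pointed upwards. Leaving out 1 array ended the DMSO calls of BNIP3 (replicate 1 or 3 of either siRNA), of BCL2L11 (replicate 1 or 2 of either siRNA) and of CCND1 (replicate 3 of control siRNA, or 1 or 3 of BCL3 siRNA). Under TMZ it ended those of CCND1 (replicate 2 of either siRNA) and of ATG14 (any array but replicate 2 of BCL3 siRNA and TMZ).

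**Figure D4:**
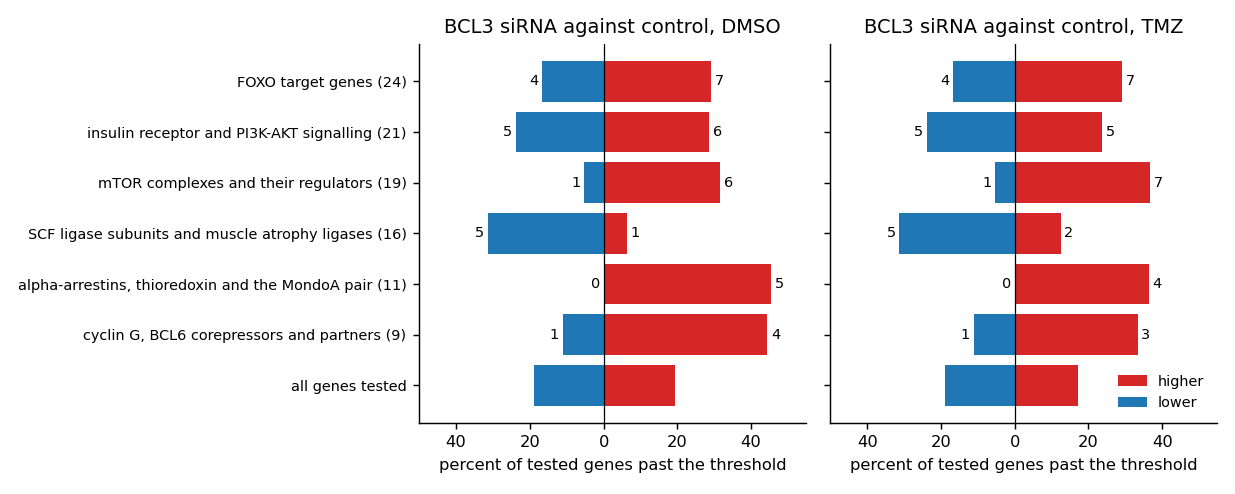
Share of the analysed genes of each list that were higher (right) or lower (left) with BCL3 siRNA past the threshold, with the number of genes at each bar and the list size in brackets. The lowest bar gives all genes, 19.3% up and 18.8% down under DMSO and 17.1% up and 18.9% down under TMZ.

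The insulin receptor and PI3K-AKT genes were divided. Of 21 analysed, 6 rose and 5 fell under DMSO (median -0.05), and 5 rose and 5 fell under TMZ (median 0.00). PHLPP2, a phosphatase that removes an activating phosphate from AKT, rose by 0.57 and 0.65 (SE 0.07), and PIK3CD, the catalytic delta subunit of PI3K, by 0.61 in both treatments (SE 0.08). INPPL1, the SHIP2 lipid phosphatase, fell by 0.41 under DMSO and by 0.53 under TMZ (SE 0.06). FOXO4, a further FOXO factor counted among the rises, was named after its values were seen. It rose by 0.40 under DMSO (limma adjusted p = 0.00231) and by 0.26 under TMZ (adjusted p = 0.027). Its TMZ call was lost without replicate 2 or 3 of control siRNA or replicate 1 or 3 of BCL3 siRNA under TMZ. Further TMZ calls of the list were named in the same way. IGF2R rose by 0.19 and TBC1D4 by 0.25, while AKT1 fell by 0.20, SHC1 by 0.22 and PIK3CB by 0.29. Each of these calls was lost in at least 1 of the settings that left out a single array. GRB14, an adaptor that inhibits the insulin receptor, fell by 0.41 under DMSO and by 0.39 under TMZ (SE 0.06), but its other analysed probe stood at -0.31 (adjusted p = 0.0842) and -0.09 (adjusted p = 0.62). Under TMZ, leaving out 1 array gave between 2 and 5 rises and between 3 and 6 falls; the lowest counts were 2 rises without replicate 2 or 3 of control siRNA and TMZ, 3 rises without replicate 1 of that group or without replicate 1 or 2 of BCL3 siRNA and TMZ, and 3 falls without replicate 2 or 3 of control siRNA and TMZ.

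Among mTOR complex genes and their regulators, 6 of 19 rose and 1 fell under DMSO (median 0.13), and 7 rose and 1 fell under TMZ (median 0.07). The genes that rose with the lowest p were SESN1, TSC1, TBC1D7 and DDIT4, all known as restraints on mTORC1. That label is given to these genes alone, and SESN1 and DDIT4 also stood on other lists. The remaining rises were named after their values were seen. RPS6KB2 rose by 0.37 and 0.27, SGK1 by 0.41 and 0.31, and MAPKAP1 by 0.22 under TMZ. The TMZ call of RPS6KB2 was lost without replicate 2 or 3 of control siRNA or replicate 1 or 3 of BCL3 siRNA under TMZ. That of MAPKAP1 was lost without any 1 replicate of control siRNA and TMZ, or without replicate 1 or 2 of BCL3 siRNA and TMZ. It was also lost without replicate 2 of control siRNA and DMSO. Leaving out 1 array gave between 6 and 8 rises under DMSO and between 5 and 7 under TMZ. TBC1D7, a subunit of the TSC complex, rose by 0.80 and 0.70 (SE 0.09). TSC1 rose by 0.65 and 0.62 (SE 0.07) with its brightest probe and by 0.27 and 0.39 with another, whereas the remaining probe was at -0.54 under DMSO (adjusted p = 0.00643) and 0.02 under TMZ. The 1 gene that fell was RPTOR, the scaffold of mTORC1, at -0.38 and -0.35. Its call under DMSO was lost without replicate 1 of control siRNA or replicate 2 or 3 of BCL3 siRNA under DMSO. Its call under TMZ was lost without any 1 of the 6 TMZ arrays or without replicate 3 of control siRNA and DMSO.

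Among the ubiquitin ligase relatives of FBXO32, falls outnumbered rises, while 10 genes under DMSO and 9 under TMZ did not pass. Of 16 subunits of SCF ligases and ligases of muscle atrophy, 1 rose and 5 fell under DMSO (median -0.04), and 2 rose and 5 fell under TMZ (median -0.02). CAND1, the exchange factor that swaps F-box proteins on the cullin, fell by 0.85 and by 0.91 (SE 0.06). FBXO21, another F-box protein of muscle atrophy, fell by 0.73 and by 0.69 (SE 0.07), and its second probe by 0.77 and by 0.76. SKP2, the F-box protein that marks p27 for destruction, fell by 0.55 and by 0.67 (SE 0.06) with its brightest probe and by 0.75 and by 0.42 with another, while the remaining probe fell by 0.30 under DMSO and stood at -0.16 under TMZ (adjusted p = 0.112). FBXW7, which marks cyclin E and MYC, rose by 0.68 and 0.61 (SE 0.08) with its brightest probe, but its other analysed probes did not pass, at -0.19 and -0.16 under DMSO. The rises numbered 2 under DMSO without replicate 1 of control siRNA or without replicate 1 or 2 of BCL3 siRNA, and 1 under TMZ without replicate 3 of control siRNA or replicate 1 of BCL3 siRNA. TRIM63, the MuRF1 ligase usually induced in muscle together with FBXO32, had no analysed probe.

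Around TXNIP, the calls among the alpha-arrestins and their partners were rises. Of 11 genes of the alpha-arrestin, thioredoxin and MondoA list, 5 rose and 0 fell under DMSO (median 0.27), and 4 rose and 0 fell under TMZ (median 0.08). ARRDC4 rose by 0.74 and 0.68 (SE 0.10), and its other probe stood at 0.28 (adjusted p = 0.11) and 0.45 (adjusted p = 0.018). ARRDC3 rose by 0.69 and 0.71 (SE 0.10). SLC2A1, the glucose transporter GLUT1 that TXNIP removes from the cell surface, rose from 9.02 to 10.09 under DMSO (1.07, SE 0.06) and from 8.38 to 9.71 under TMZ (1.33, SE 0.06). DDIT4 rose by 0.54 and 0.68 (SE 0.08).

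The cyclin G and BCL6 corepressor list had 9 analysed genes, of which 4 rose and 1 fell under DMSO (median 0.17) and 3 rose and 1 fell under TMZ (median 0.14). PRDM1, the repressor that opposes BCL6 in B cells, rose by 0.61 and 0.67 (SE 0.07), and BCOR, a corepressor of BCL6, fell by 0.35 and by 0.30 (SE 0.06). CCNG1, the relative of the undetected CCNG2, rose by 0.24 and 0.29 (SE 0.08), and CCNI by 0.28 and 0.17 (SE 0.06). TBL1X rose by 0.24 under DMSO (SE 0.06) and stood at 0.03 under TMZ. Of these calls, that of TBL1X was lost without replicate 2 of BCL3 siRNA and DMSO (adjusted p = 0.0562). The DMSO call of CCNG1 was lost without replicate 1 or 2 of control siRNA or replicate 1 of BCL3 siRNA under DMSO. Its TMZ call was lost without replicate 1 of control siRNA or of BCL3 siRNA under TMZ, and that of CCNI without any 1 of 7 arrays (replicates 1 and 2 of control siRNA with DMSO, of control siRNA with TMZ and of BCL3 siRNA with TMZ, and replicate 2 of BCL3 siRNA with DMSO), with an adjusted p of up to 0.126; 1 rise remained in the list without replicate 1 of either TMZ group.

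**Figure D5:**
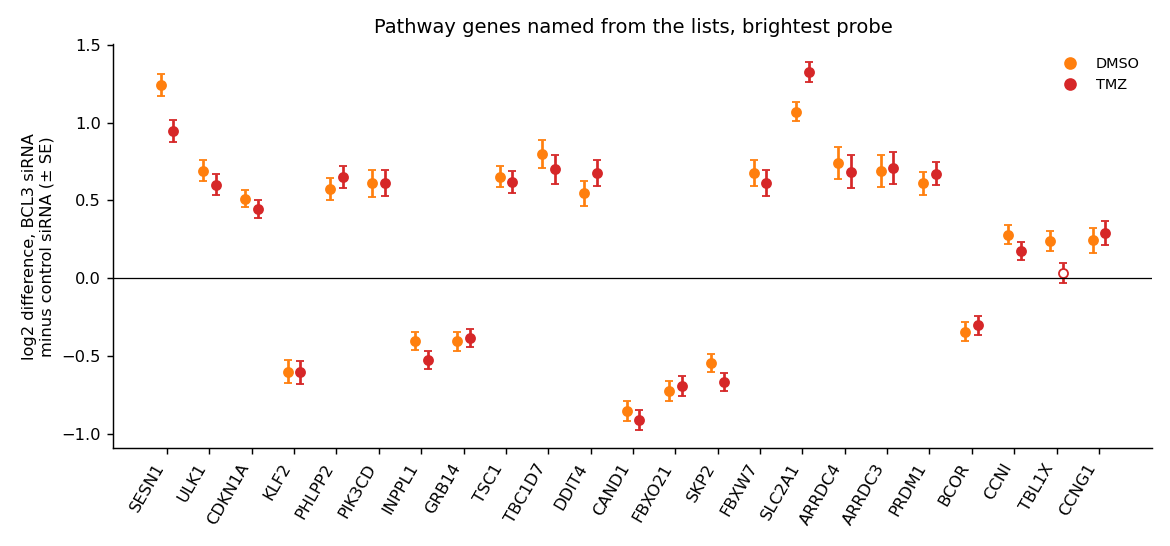
Log2 difference between BCL3 siRNA and control siRNA with its SE for the genes named from the lists, each by its brightest probe, under DMSO (orange) and TMZ (red); filled points passed the threshold. SESN1 and SLC2A1 reach 1.24 and 1.33, CAND1 is lowest at -0.91, and TBL1X under TMZ is the open point at 0.03.

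These counts depended on the scaling of the arrays, most of all under DMSO. With arrays scaled to the median of all probes, which shifted the median of the analysed probes under DMSO to -0.24, the DMSO rises and falls were 2 and 7 for FOXO targets, 0 and 10 for insulin and PI3K-AKT genes, 2 and 3 for mTOR genes, 1 and 8 for ubiquitin ligase genes, 3 and 2 for the TXNIP list and 0 and 2 for the BCL6 list. Of the DMSO calls 20 were lost there, all rises. Among the genes named here these were CDKN1A, BNIP3, GADD45A, CITED2, BCL2L11, PHLPP2, PIK3CD, FOXO4, IGF2R and TBC1D4. They also included TSC1, DDIT4, RPS6KB2, SGK1, PRDM1, CCNI, CCNG1 and TBL1X, the last at -0.12. Under TMZ this scaling gave 6 rises and 3 falls for FOXO targets, 2 and 3 for insulin and PI3K-AKT genes, 4 and 1 for mTOR genes, 1 and 5 for ubiquitin ligase genes, 4 and 0 for the TXNIP list and 1 and 1 for the BCL6 list. Of the TMZ calls 13 were lost, among them CCND1, ATG14, FOXO4, IGF2R, TBC1D4, AKT1, SHC1, RPS6KB2, SGK1, MAPKAP1, CCNG1 and CCNI. With arrays scaled to the median of the analysed probes, the ubiquitin ligase list had 4 rises and 5 falls under DMSO, with a median of 0.04. Under TMZ it had 3 and 5, and the BCL6 list had 5 rises. The falls of RPTOR, CCND1 and SHC1 were lost in both treatments, and that of AKT1 under TMZ. With that scaling, or by cyclic loess, the lists kept more rises than falls or more falls than rises as in the main setting, except that the insulin list had 5 of each under DMSO and 5 rises and 6 falls under TMZ with loess, and 5 rises and 3 falls under TMZ with median scaling.

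TMZ changed few genes of these lists. With control siRNA, where 0.646% of all genes passed, CDKN1A rose by 1.02 (SE 0.06, limma adjusted p = 1.71e-06) and SESN1 by 0.96 (SE 0.07, adjusted p = 3.64e-05), both known as targets of p53 as well as of FOXO. BNIP3, a mitochondrial protein of hypoxia and mitophagy, fell by 0.47 (SE 0.06), SLC2A1 fell by 0.64 (SE 0.06) and DDIT4 fell by 0.44 (SE 0.08, adjusted p = 0.0342). The other genes of the 6 lists did not pass. The DDIT4 call was lost without any 1 of 7 arrays (all 3 of control siRNA with TMZ, and replicates 2 and 3 of either siRNA with DMSO), with an adjusted p of up to 0.157. With BCL3 siRNA, where 0.59% passed, CDKN1A rose by 0.95 and SESN1 by 0.67, and SLC2A1 fell by 0.38 (adjusted p = 0.0164). With only the 6 arrays compared, the adjusted p was 0.0534 for SESN1 and 0.149 for SLC2A1, and SLC2A1 reached 0.373 with arrays scaled to the median of all probes. The SLC2A1 call was also lost without any 1 of the 3 arrays of BCL3 siRNA and DMSO or without replicate 2 or 3 of BCL3 siRNA and TMZ, with an adjusted p of up to 0.0721.

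Averaged over both siRNAs, where 2.92% of genes passed (1.6% up, 1.32% down), the list genes that rose were CDKN1A (0.99), SESN1 (0.82), CCNG1 (0.30), PRDM1 (0.29) and GADD45A (0.25). Those that fell were SLC2A1 (by 0.51), DEPP1 (by 0.38), BNIP3 (by 0.38), DDIT4 (by 0.38) and SOD2 (by 0.23). Scaling to the median of all probes ended the calls of CCNG1 (adjusted p = 0.142), PRDM1 (0.11), GADD45A (0.268) and SOD2 (0.389). The other probes of GADD45A, at 0.21 (adjusted p = 0.132), and of SOD2, at -0.21 (adjusted p = 0.0977), did not pass. Of the single arrays, GADD45A was lost without replicate 1 of control siRNA under DMSO or under TMZ, DEPP1 without replicate 1 or 2 of control siRNA and TMZ or replicate 1 or 3 of BCL3 siRNA and TMZ, and SOD2 without any 1 of 8 arrays (all 3 of control siRNA with DMSO, replicates 1 and 3 of control siRNA with TMZ and of BCL3 siRNA with DMSO, and replicate 1 of BCL3 siRNA with TMZ), with adjusted p values of up to 0.0825. In the interaction, 0 genes of the 6 lists passed.

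Among all genes, the patterns closest to FBXO32 ILMN_1703955 over the 12 arrays were those of RRAD (Pearson r = 0.99), ABCA1 (0.98), GPAT3 (0.98), FERRY3 (0.98) and PPIC (0.98); the other FBXO32 probe reached 0.94. RRAD, a small GTPase, read 8.50 and 9.47 with control and BCL3 siRNA under DMSO, and ABCA1, the cholesterol exporter, read 9.26 and 10.11. The genes closest to TXNIP were MED30 (0.99), FERMT2 (0.99), MZF1 (0.99), B4GALT5 (0.99) and TM2D3 (0.99). The arrays share the split by siRNA. After the group means were removed, r with FBXO32 ran from -0.33 for PPIC to 0.66 for RRAD, and r with TXNIP from 0.61 for FERMT2 to 0.80 for MZF1. Among the members, TXNIP and FBXO32 ILMN_1703955 had r = 0.92 over the 12 arrays, IRS2 and FBXO32 -0.82, and IRS1 and FBXO32 -0.07. These member values include the split by siRNA, known when the members were chosen, and were not taken after the group means were removed.

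Levels of the marker lists were taken from the same arrays. Between siRNAs, 3 of 4 glioma and astroglial markers fell in both treatments and 1 rose under DMSO, 3 and 4 of the 4 neuron and oligodendrocyte markers fell under DMSO and TMZ, and 2 and 1 of the 4 leukocyte markers fell. EPCAM and TNNT1 did not pass under DMSO and fell under TMZ. Of all genes, 19.3% rose and 18.8% fell under DMSO, and 17.1% rose and 18.9% fell under TMZ. The marker counts were not repeated with other scalings, and the sums that follow weigh the brightest markers most. The summed linear level of the glioma and astroglial markers was 20567 to 23460 on the control siRNA arrays and 16302 to 18431 on the BCL3 siRNA arrays. That of the neuron and oligodendrocyte markers, of which 4 of 7 were kept and MBP, MOG and RBFOX3 were detected on no array, was 1516 to 1662 and 1125 to 1306. The leukocyte sum was 2183 to 2435 and 1923 to 2225, the epithelial sum, of EPCAM alone, was 19.6 to 25.4 and 6.59 to 23.5, and the muscle sum, of TNNT1 alone, was 83.8 to 94.0 and 70.5 to 87.8. Their part in the differences of the members was not tested.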

How the data were processed

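The deposited table held bead-averaged probe intensity values of 12 arrays that the authors had neither normalized nor background-subtracted, judged from the values, and a detection p-value beside each, per the file headers. The header does not name the samples of the detection columns; each was matched to the intensity column before it. A second deposited table held intensity values normalized by the authors, used as an alternative. Scanning software is not given in the sources used here. Next, the neqc function (limma 3.58.1, R 4.3.3) took background from negative controls inferred from detection p, added an offset of 16, and gave quantile-normalized log2 values. Probes with a detection p under 0.01 on at least 3 arrays were kept (18105). With lmFit and eBayes, 1 mean per group was estimated from the 12 arrays (8 residual degrees of freedom); tests were 2-sided, with Benjamini-Hochberg adjustment across every kept probe, and the steps were tested on simulated data. The number of arrays limits the precision.

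The members and lists were chosen with earlier results of these data known. Named were BCL3, every member, up to 4 called genes of each list with the lowest p in each siRNA comparison, every called list gene in the TMZ comparisons, and the 5 genes most like FBXO32 and TXNIP. Added after their values were seen were RPTOR, FOXO4, RPS6KB2, SGK1, MAPKAP1, the remaining called FOXO targets of the siRNA comparisons, and CCNG1 under DMSO. So were IGF2R, TBC1D4, AKT1, SHC1 and PIK3CB between siRNAs under TMZ. Promoters are from RefSeq, GRCh38.p14. Protein sequences were not used here. The labels number the replicates without saying whether same-numbered samples were paired, and the main model took them as unpaired. Same-numbered arrays had deviations correlated from -0.15 to 0.18, over 0.1 in 4 of 18 pairs. For replicate 3, control siRNA with DMSO had 0.13 with each BCL3 siRNA group, and those groups had 0.18 with each other. Alternatives are given in the closing section.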

Additional observations from a re-analysis of the deposited data

How the results depend on the processing

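Member differences between siRNAs moved by less than the spread within groups in 446 of 480 values and by more in 34. Of 942 member values for TMZ and the interaction, 880 kept their direction and side of the threshold, 44 changed sign while passing under neither setting, and 18 lost the call of FBXO32. Of 1664 values of named list genes, 62 no longer passed and 1 reversed, TBL1X at -0.12 under median scaling over all probes. These values leave out the comparisons named after their values were seen. Among those, BNIP3 (-0.0080), CCNG1 (-0.01) and BCL2L11 (-0.05) also changed sign under DMSO with that scaling. Median scaling was first run over all probes; after that result was seen it was changed to the analysed probes, and both are given. The share of higher calls under DMSO was 50.4% in the main setting, 67% with the analysed probes (median shift 0.11) and 4.42% with all probes (-0.24); under TMZ it was 50.2%, 61.4% and 36.6%, the last with 3648 calls against 6063. For TMZ with control siRNA the all-probe share was 16.3% against 54.4% (median -0.11), and with BCL3 siRNA 95.7% against 57% (median 0.12).

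Calls for TMZ with control siRNA numbered 90, but 351 with normexp by maximum likelihood, 463 without background correction, 298 with an offset of 50, 386 with trend and robust moderation, 173 with array weights, 160 with median scaling over all probes, 59 at a detection p under 0.05, 55 with only the 6 arrays compared, 57 with the replicate block and 35 to 86 with 1 array left out. With BCL3 siRNA they numbered 86, but in the same order 305, 359, 266, 321 and, with median scaling over all probes, 139; 142 with detection on all 12 arrays, 6 with only the 6 arrays compared (83.3% higher), and 31 to 76 with 1 array left out. Averaged over siRNAs they numbered 454, but 1078, 1242, 1020 and 1163, 145 with median scaling over all probes, 802 with detection on all 12 arrays and 215 to 502 with 1 array left out. The interaction had 0 calls, but 5, 3, 5 and 3 in that order and 27 with median scaling over all probes. Member probes called for TMZ averaged over siRNAs were 1, but 0 under either median scaling, the authors' normalized intensities, no filter, a detection p under 0.05, the replicate block and array weights, and 0 to 1 with 1 array left out. The replicate block lost no other member call; it lost the calls of CCNI under TMZ (adjusted p = 0.0648), DDIT4 with TMZ (0.0557) and SOD2 (0.0545), and same-numbered arrays correlated best with each other in 7 of 18 comparisons. The causes were not tested, and dim probes such as PIK3IP1 and IRS2 limit what can be measured.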
